A study of Mus musculus with 2 samples.

Results

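The transcripts described here are those of the mitochondrial genome, measured in mouse liver. They were taken as every row of both deposited expression tables whose gene symbol starts with mt-. This gave 33 of 13326 gene symbols, namely 13 messenger RNAs, 2 ribosomal RNAs and 18 transfer RNAs. The GENCODE M21 annotation (build GRCm38) names 22 mitochondrial transfer RNA genes, and the remaining 4 had no row under their symbols, so they are not described here. All 33 members reached 1 FPKM (sequenced fragments per unit of transcript length, relative to all mapped fragments of a library) in at least 1 library.

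The study set livers of Adipoq-/- mice, which lack the adipocyte hormone adiponectin, against livers of wild-type mice. Males of the C57BL/6J strain were used at 12 weeks of age after an overnight fast. RNA from 9 to 10 animals of a genotype went into 1 pool and 1 library, so there are 2 libraries in all. Adipoq, which adipocytes and not hepatocytes express, was among the adipocyte markers looked up but had no listed value, so it gives no check of the labels. No value below has a replicate, and no difference was tested or has a p-value. In pooled bulk tissue, a change in the number of cells or mitochondria and a change in RNA per mitochondrion cannot be told apart.

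As background, the circular mitochondrial genome is transcribed from both strands into long precursors by the polymerase POLRMT with the factors TFAM and TFB2M. Transfer RNAs lie between most of the longer genes, and their excision by RNase P and ELAC2 releases the messenger and ribosomal RNAs. The messenger RNAs encode core subunits of respiratory complexes I, III, IV and V, while the remaining subunits are encoded in the nucleus. Hepatocytes are rich in mitochondria, which carry out fatty acid oxidation and ketone synthesis during a fast.

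Because the genes abut, some reads belong to more than 1 of them. The reading frames of mt-Atp8 and mt-Atp6 share 43 bases at chrM:7927-7969 (GRCm38, plus strand, inside both coding exons). This stretch is shown because a fragment from it matches either gene. The capitals mark the start codon of mt-Atp6.
mt-Atp8 and mt-Atp6 overlap: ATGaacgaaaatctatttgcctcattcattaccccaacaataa
The transfer RNAs whose sequences are shown here each lie on the minus strand, called the light strand here. Plus-strand genes are called heavy-strand genes, and some of those listed at 0 in a library had ratios farther from 0. The first sequence shown is that of mt-Ts1, the most abundant of the 18. The others had the ratios farthest from 0 among light-strand transfer RNAs. All these sequences, from the GENCODE M21 transcripts, are written 5′ to 3′ with T for U and the anticodon in capitals.
mt-Ts1: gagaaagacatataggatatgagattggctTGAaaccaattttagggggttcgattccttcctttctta
mt-Tp: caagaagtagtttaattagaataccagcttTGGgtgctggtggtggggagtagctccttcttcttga
mt-Te: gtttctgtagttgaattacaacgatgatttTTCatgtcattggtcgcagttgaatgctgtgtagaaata
mt-Ta: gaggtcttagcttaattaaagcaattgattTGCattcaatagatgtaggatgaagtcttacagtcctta
They carry serine (mt-Ts1), proline (mt-Tp), glutamate (mt-Te) and alanine (mt-Ta). In GRCm38, mt-Ts1 lies at chrM:6870-6938, mt-Tp at chrM:15356-15422, mt-Te at chrM:14071-14139 and mt-Ta at chrM:5018-5086. All 18 are between 59 and 75 bases long, shorter than the cDNA fragments of 200 to 250 bases that were selected for sequencing. Their FPKM values are therefore uncertain, and they are reported apart from the longer genes.

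Summed FPKM came to 891964 in the Adipoq-/- library and 798170 in the wild-type library. Ratios are log2((Adipoq-/- FPKM + 1) / (wild-type FPKM + 1)) on the values as deposited, a scale that understates differences of low genes. Over the 11985 genes with at least 1 FPKM in a library, the median ratio was -0.15, so a ratio relative to other genes is 0.15 higher. All 10 hepatocyte markers were listed, with 60225 summed FPKM in the Adipoq-/- and 64306 in the wild-type library. Of 10 skeletal and heart muscle markers, which would mark another tissue rich in mitochondria, 1 was listed, Acta1, at 1.66 FPKM in the Adipoq-/- and 1.77 in the wild-type library. Red cell markers, whose mature cells have no mitochondria, summed to 13493 FPKM in the Adipoq-/- and 11823 in the wild-type library. Of 6 brown adipocyte markers 3 were listed, at 133 summed FPKM in the Adipoq-/- and 194 in the wild-type library. Nearly all of this was Elovl3, at 127 FPKM in the Adipoq-/- and 188 in the wild-type library. Which cells supplied the Elovl3 transcripts was not tested, so this sum is not a measure of brown adipocytes. Cidea stood at 0.146 FPKM in the Adipoq-/- and 1.03 in the wild-type library. Cox7a1 was slightly higher, at 5.78 FPKM in the Adipoq-/- and 5.59 in the wild-type library. Of 6 white adipocyte markers 2 were listed and differed in opposite directions. Cfd stood at 2.01 FPKM in the Adipoq-/- and 13.3 in the wild-type library, and Fabp4 at 10.95 FPKM in the Adipoq-/- and 9.61 in the wild-type library. Of 6 Kupffer cell symbols 5 were listed, at 106 summed FPKM in the Adipoq-/- and 104 in the wild-type library. Of these, 3 were higher and 2 lower in the Adipoq-/- library as deposited. Marco was past 2-fold, at 3.72 FPKM in the Adipoq-/- and 1.26 in the wild-type library. The lower ones were the most abundant, Clec4f at 48.9 FPKM in the Adipoq-/- and 52.0 in the wild-type library, and Cd5l at 31.2 and 32.4. None of the 5 kidney tubule markers was listed. The part of other cells in the mitochondrial values was not tested.

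The mitochondrial genome supplied 10.4% of summed FPKM in the Adipoq-/- library and 10.3% in the wild-type library. Nearly all of it came from the messenger RNAs, at 9.91% in the Adipoq-/- and 9.65% in the wild-type library. The transfer RNAs made up 0.442% in the Adipoq-/- and 0.559% in the wild-type library, and the ribosomal RNAs 0.0446% in the Adipoq-/- and 0.0429% in the wild-type library. As deposited, 11 of 13 messenger RNAs were higher in the Adipoq-/- library by small amounts, although with both libraries brought to equal sums 7 were higher and 6 lower. Of the 18 transfer RNAs, 12 were lower as deposited, a share close to the 66.9% of all genes that were lower. Under other scalings between 10 and 13 of them were lower. The messenger RNA ratios ran from -0.23 to 0.37 with a median of 0.16, and none was 1.5-fold apart in either direction. Over all genes tested, 33.1% had a ratio above 0 as deposited, 3.23% were at least 1.5-fold higher and 6.17% at least 1.5-fold lower.

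Of the cytochrome c oxidase subunits, which form the catalytic core of complex IV, mt-Co3 and mt-Co2 held the highest ratios of the 13 messenger RNAs. mt-Co1 stood at 16953 FPKM in the Adipoq-/- library and 15535 in the wild-type library, a ratio of 0.13, and was the most abundant mitochondrial transcript in each. mt-Co3 stood at 16839 FPKM in the Adipoq-/- and 13011 in the wild-type library. Its ratio of 0.37, or 1.29-fold, was the highest of the 13. mt-Co2, which takes electrons from cytochrome c, stood at 9877 FPKM in the Adipoq-/- and 7988 in the wild-type library, a ratio of 0.31. Together these genes accounted for 43668 FPKM in the Adipoq-/- and 36533 in the wild-type library, 1.20-fold higher. mt-Co3 alone supplied 19.1% of messenger RNA FPKM in the Adipoq-/- and 16.9% in the wild-type library, while mt-Co1 supplied 19.2% in the Adipoq-/- and 20.2% in the wild-type library.

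mt-Cytb, the cytochrome b of complex III, stood at 11431 FPKM in the Adipoq-/- library and 10507 in the wild-type library, a ratio of 0.12. The ATP synthase subunits differed by similar amounts. mt-Atp6, part of the proton channel, had 6672 FPKM in the Adipoq-/- and 5966 in the wild-type library (0.16). Its overlapping partner mt-Atp8 had 2638 FPKM in the Adipoq-/- and 2453 in the wild-type library (0.10). The level of mt-Atp6 was 2.53 times that of mt-Atp8 in the Adipoq-/- and 2.43 times in the wild-type library, although both lie on 1 shared transcript. mt-Atp8 is the shortest messenger RNA gene, at 204 bases, and its level is the less certain of the pair.

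The 7 complex I genes, which encode the membrane arm that couples electron transfer to proton pumping, were split. mt-Nd1 stood at 5786 FPKM in the Adipoq-/- library and 4938 in the wild-type library (0.23). mt-Nd4 stood at 7622 FPKM in the Adipoq-/- and 6494 in the wild-type library (0.23). mt-Nd4l shares 7 bases and 1 transcript with mt-Nd4, and stood at 1083 FPKM in the Adipoq-/- and 942 in the wild-type library (0.20). The level of mt-Nd4 was 7.04 times that of mt-Nd4l in the Adipoq-/- and 6.89 times in the wild-type library, so the pair kept nearly the same proportion. mt-Nd5 had 2251 FPKM in the Adipoq-/- and 2011 in the wild-type library (0.16). mt-Nd2 had 5237 FPKM in the Adipoq-/- and 4913 in the wild-type library (0.09).

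mt-Nd3 and mt-Nd6 were the messenger RNAs with lower values in the Adipoq-/- library. mt-Nd3 stood at 1061 FPKM in the Adipoq-/- and 1192 in the wild-type library, a ratio of -0.17. mt-Nd6 stood at 925 FPKM in the Adipoq-/- and 1084 in the wild-type library, a ratio of -0.23, the lowest of the 13. mt-Nd6 is also the sole messenger RNA gene on the light strand, and the other 12 lie on the heavy strand. Its 3′ end overlaps that of mt-Nd5 by 14 bases. Whether the counting used strand is not given in the sources used here, so reads of antisense transcripts may be included in either gene. The level of mt-Nd6 was 0.411 times that of mt-Nd5 in the Adipoq-/- and 0.539 times in the wild-type library. Relative to the all-gene median, mt-Nd3 (-0.02) and mt-Nd6 (-0.08) lay just below it and the remaining 11 lay above it, as did 50% of all genes by construction.

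**Figure D1:**
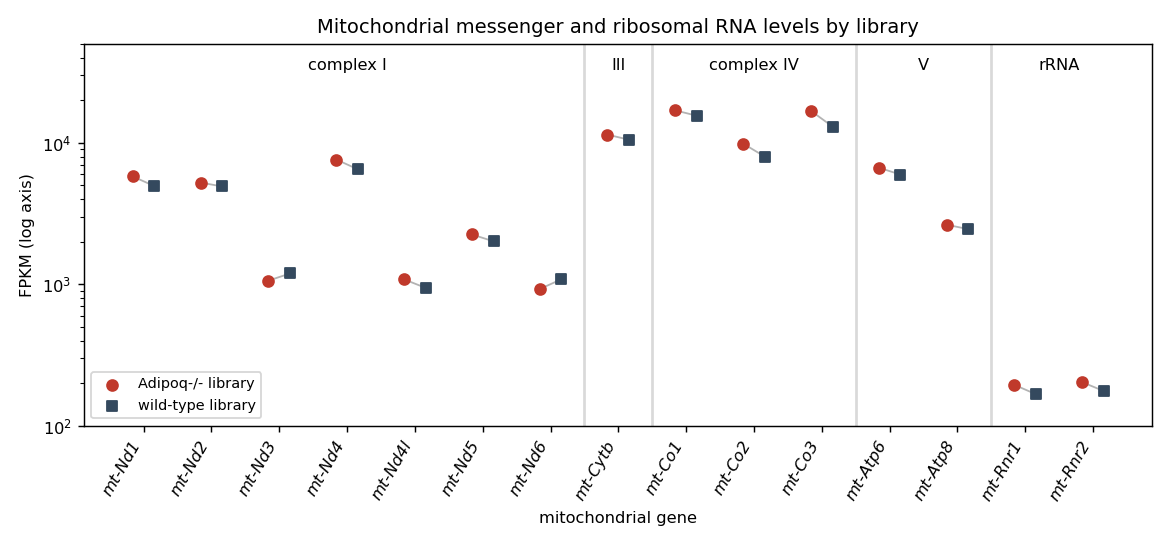
FPKM on a log axis for the 13 mitochondrial messenger RNAs, grouped by respiratory complex, and the 2 ribosomal RNAs; circles are the Adipoq-/- library and squares the wild-type library, with 1 pooled library each and no error bars. The levels span 925 to 16953 FPKM in the Adipoq-/- library for messenger RNAs, and mt-Nd3 and mt-Nd6 are the genes whose circle lies below its square.

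The order of levels was nearly the same in both libraries. Of the 13 messenger RNAs, 10 held the same rank, from mt-Co1, mt-Co3, mt-Cytb and mt-Co2 at the top down to mt-Nd5 at the tenth place. The last places went to mt-Nd4l, mt-Nd3 and mt-Nd6 in the Adipoq-/- library and to mt-Nd3, mt-Nd6 and mt-Nd4l in the wild-type library. With no replicates, it cannot be said whether these neighbours differ beyond their spread. The highest level was 18.3 times the lowest in the Adipoq-/- and 16.5 times in the wild-type library. Across the 13 genes, which come from shared precursors and the same pair of libraries, the ratio had a Spearman rho of 0.26 with gene length, 0.51 with mean level and -0.16 with position along the genome.

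The ribosomal RNA genes, which form the small (mt-Rnr1) and large (mt-Rnr2) subunits of the mitochondrial ribosome, had nearly equal levels and ratios, and both were higher in the Adipoq-/- library under each scaling tried. mt-Rnr1 stood at 194 FPKM in the Adipoq-/- library and 167 in the wild-type library (0.22). mt-Rnr2 stood at 203 FPKM in the Adipoq-/- and 176 in the wild-type library (0.21). Mitochondrial ribosomal RNAs are known to be far more abundant in cells than the messenger RNAs. Summed messenger RNA FPKM was 222 times that of the ribosomal RNAs in the Adipoq-/- and 225 times in the wild-type library. The submitters prepared the libraries with an mRNA sequencing kit, and these values are not the cellular proportion of the classes.

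The direction given for the messenger RNAs depended on the scaling of the libraries. Relative to the all-gene median, 11 of 13 were higher with a median of 0.31, and upper quartile scaling gave the same split with 0.24. With both libraries brought to equal sums, 7 were higher and 6 lower, with a median of 0.00096. The major urinary protein genes, a family of pheromone carriers secreted by male liver, held 17.0% of summed FPKM in the Adipoq-/- and 10.1% in the wild-type library and weigh on that sum. Without them, the messenger RNAs supplied 11.9% of summed FPKM in the Adipoq-/- and 10.7% in the wild-type library. Under each of the 7 scalings tried, mt-Co3, mt-Co2, mt-Nd1, mt-Nd4 and mt-Nd5 were higher in the Adipoq-/- library, and mt-Nd3 and mt-Nd6 lower. Some of these ratios came close to no difference, such as 0.0024 for mt-Nd5 with equal sums.

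**Figure D2:**
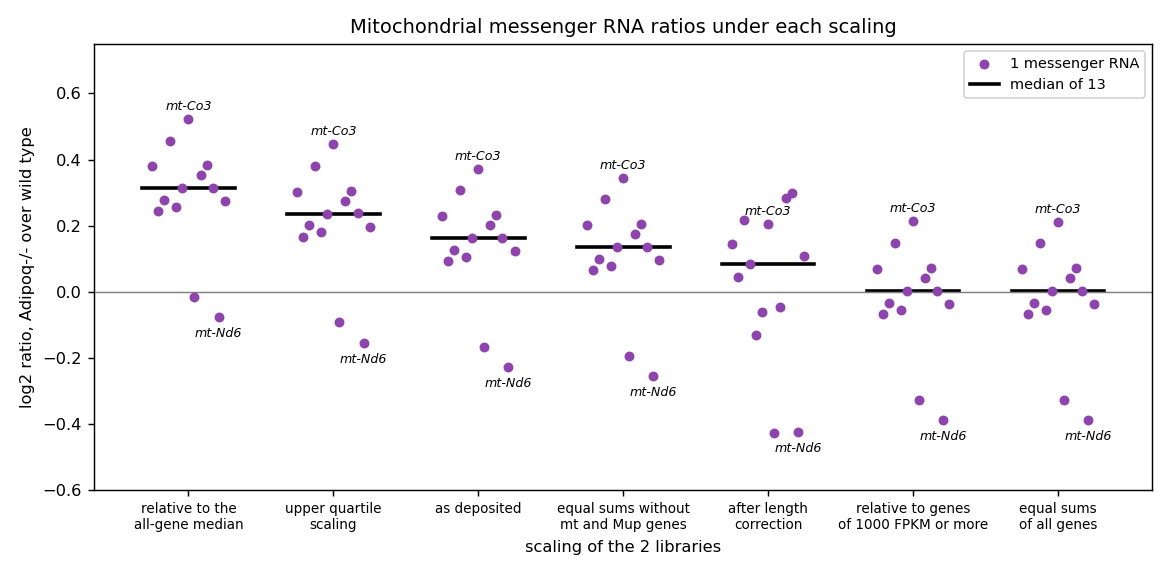
Log2 ratio of Adipoq-/- over wild type for each of the 13 mitochondrial messenger RNAs (points) with their median (line) under 7 scalings of the libraries. The median lies at 0.31 relative to the all-gene median and at 0.00096 with equal sums, while mt-Co3 stays above 0 and mt-Nd6 below it in every column.

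Nuclear genes of similar abundance had a similar median. The 95 nuclear genes whose mean was 1000 FPKM or more had a median ratio of 0.16 as deposited, with quartiles at -0.06 and 0.54. The median of the 13 messenger RNAs was 0.16 as well, 11 of them lay between those quartiles, and mt-Nd3 and mt-Nd6 lay below. Their ratios had an SD of 0.17 across genes, against 0.45 across the abundant nuclear genes. Major urinary protein genes were not removed from the abundant set, and their part in its median, quartiles and SD was not tested. Over 11571 genes with a known length, that of the longest annotated transcript, the ratio had a Spearman rho of -0.42 with length. Mitochondrial messenger RNAs are short, at 204 to 1824 bases. After subtraction of the running median over length, their median was 0.08, with 8 higher and 5 lower.

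**Figure D3:**
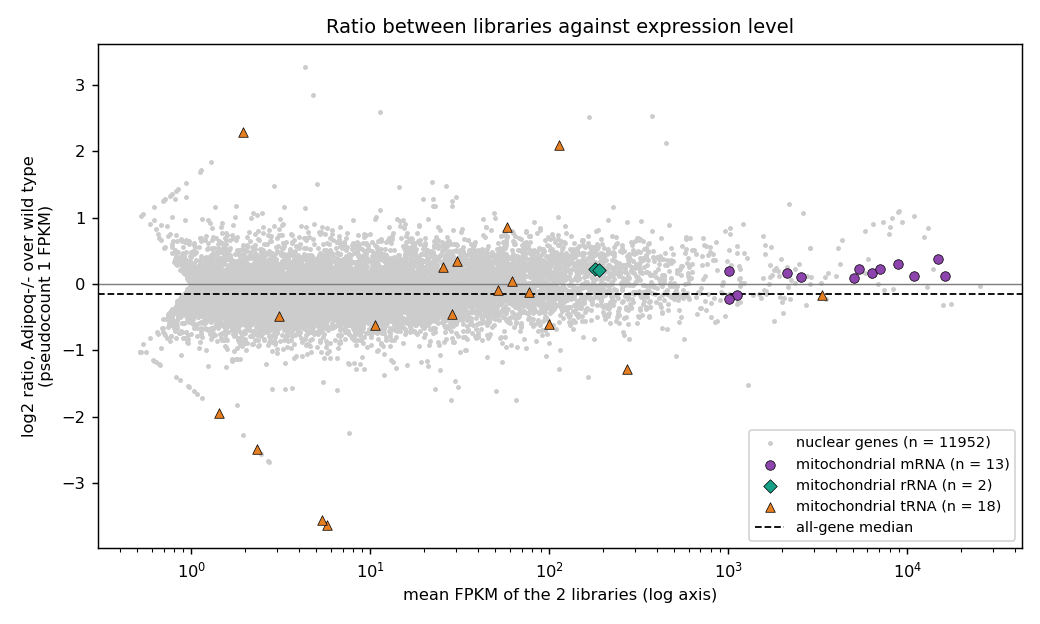
Log2 ratio of Adipoq-/- over wild type against the mean FPKM of the libraries (log axis) for 11952 nuclear genes (grey) and the mitochondrial messenger, ribosomal and transfer RNAs; the dashed line is the all-gene median of -0.15. The messenger RNAs lie in a narrow band at 1000 FPKM or more, and the transfer RNAs spread from -3.64 to 2.29, the extremes being genes listed at 0 in a library.

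The transfer RNAs differed most between the libraries. Of the 18, 2 were at least 2-fold higher and 5 at least 2-fold lower in the Adipoq-/- library, counting those listed at 0 in 1 library. Over all genes tested, 0.459% were at least 2-fold higher and 0.759% at least 2-fold lower. Among the 105 nuclear genes with transcripts of up to 200 bases, the shares were 11.4% and 10.5%, so short nuclear genes were past 2-fold more often than all genes. By ratios with the pseudocount of 1 FPKM, 3 transfer RNAs were at least 1.5-fold higher and 7 lower, next to 20% and 13.3% of the short nuclear genes. The median ratio of the 18 transfer RNAs was -0.31, against the all-gene median of -0.15.

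mt-Ts1 held 80.1% of all transfer RNA FPKM in the Adipoq-/- and 79.5% in the wild-type library. It stood at 3159 FPKM in the Adipoq-/- and 3546 in the wild-type library, a ratio of -0.17. Its gene overlaps the 3′ end of mt-Co1, the most abundant mitochondrial messenger RNA, by 3 bases on the opposite strand. As the use of strand in the counting is not given, reads of heavy-strand transcripts may be included in the mt-Ts1 value. Without mt-Ts1, the other transfer RNAs summed to 784 FPKM in the Adipoq-/- and 913 in the wild-type library.

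mt-Tp, the last gene before the control region, stood at 185 FPKM in the Adipoq-/- library and 42.5 in the wild-type library. This was 4.35-fold higher, with a ratio of 2.09. mt-Te, which lies between mt-Nd6 and mt-Cytb, stood at 158 FPKM in the Adipoq-/- and 385 in the wild-type library. Its ratio was -1.27, and its neighbour mt-Nd6 had the lowest ratio among the messenger RNAs. mt-Ta, the alanine transfer RNA, stood at 74.8 FPKM in the Adipoq-/- and 40.98 in the wild-type library (0.85). mt-Tp lies 67 bases and mt-Te 5 bases from mt-Cytb, and they differed in opposite directions, while mt-Cytb itself had a ratio of 0.12.

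The other light-strand transfer RNAs were closer together. mt-Tn, for asparagine, stood at 34.5 FPKM in the Adipoq-/- and 26.9 in the wild-type library (0.35). mt-Ty, for tyrosine, stood at 27.9 FPKM in the Adipoq-/- and 23.3 in the wild-type library (0.25). These were the remaining light-strand genes with a higher value in the Adipoq-/- library. mt-Tc, for cysteine, stood at 49.8 FPKM in the Adipoq-/- and 53.3 in the wild-type library (-0.10). mt-Tq, for glutamine, stood at 74.1 FPKM in the Adipoq-/- and 80.6 in the wild-type library (-0.12). Of the 8 light-strand transfer RNAs, 4 were therefore higher and 4 lower as deposited, and 6 were above the all-gene median.

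Most heavy-strand transfer RNAs were low, and 8 of 10 were lower in the Adipoq-/- library as deposited, or 9 with equal sums. Of all genes, 66.9% were lower as deposited. Of the 8 lower transfer RNAs, 4 were listed at 0 in the Adipoq-/- library. mt-Tl1, a leucine transfer RNA between mt-Rnr2 and mt-Nd1, stood at 78.4 FPKM in the Adipoq-/- and 120 in the wild-type library (-0.60). mt-Ti, for isoleucine, stood at 23.8 FPKM in the Adipoq-/- and 33.1 in the wild-type library (-0.46). mt-Tw, for tryptophan, stood at 8.13 FPKM in the Adipoq-/- and 13.1 in the wild-type library (-0.63). These lower values were spread over several stretches of the genome. mt-Tv, for valine, stood at 2.40 FPKM in the Adipoq-/- and 3.77 in the wild-type library (-0.49). mt-Tm, for methionine, was nearly level, at 62.7 FPKM in the Adipoq-/- and 61.1 in the wild-type library (0.04).

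Genes listed at 0 in 1 library were all heavy-strand transfer RNAs, and no fold is given for them. In the Adipoq-/- library 4 were listed at 0. In wild type, mt-Tr for arginine had 11.4 FPKM, mt-Tl2 for leucine 10.8, mt-Ts2 for serine 4.64 and mt-Th for histidine 2.84. The last 3 lie side by side between mt-Nd4 and mt-Nd5. mt-Tt, for threonine, was listed at 3.89 FPKM in the Adipoq-/- library and at 0 in the wild-type library. Over all genes tested, 0.2% were listed at 0 in the Adipoq-/- library alone and 0.134% in the wild-type library alone. Among short nuclear genes these shares were 9.52% and 6.67%. The reads behind these values are unknown, and the genes are shorter than the fragments selected, so a 0 does not show absence of these transfer RNAs.

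Listed levels differed between light-strand and heavy-strand genes in both libraries, a split chosen after the values were seen. Whether the counting used strand is not given, so reads of opposite-strand transcripts may be included in these values. The 8 light-strand transfer RNAs ran from 27.9 to 3159 FPKM with a median of 74.5 in the Adipoq-/- library, and from 23.3 to 3546 with a median of 47.9 in the wild-type library. The 10 heavy-strand transfer RNAs ran from 0 to 78.4 FPKM with a median of 3.14 in the Adipoq-/- library, and from 0 to 120 with a median of 11.1 in the wild-type library. All 8 light-strand genes were at 20 FPKM or more in each library, as were 3 of 10 heavy-strand genes. Across the 18 genes, many of which share a neighbour, the Spearman rho between a transfer RNA and the more abundant of the longer genes that flank it was 0.34 in the Adipoq-/- and 0.17 in the wild-type library.

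**Figure D4:**
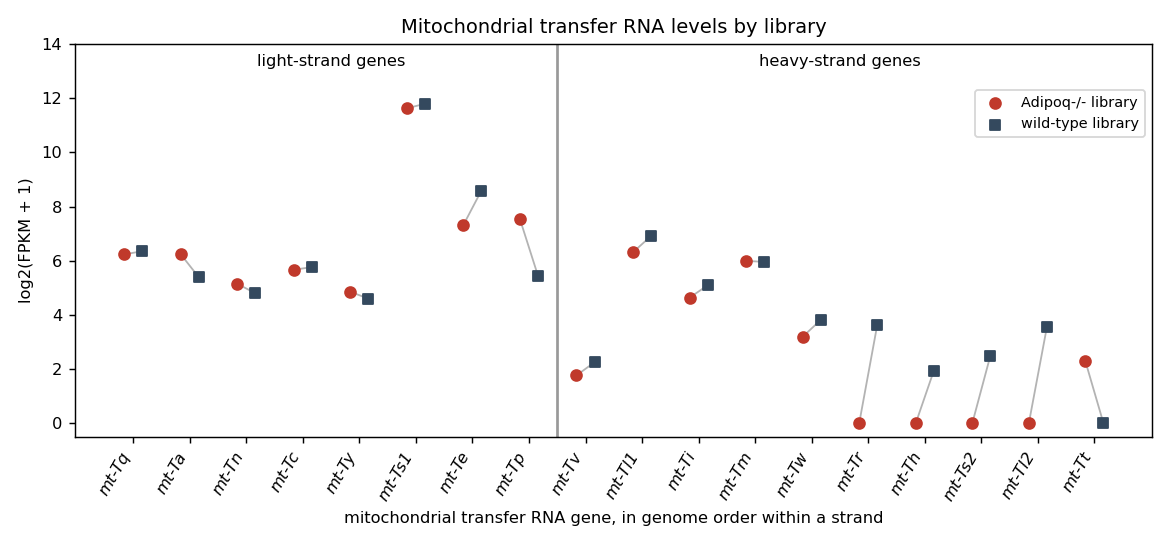
Log2(FPKM + 1) of the 18 mitochondrial transfer RNAs in the Adipoq-/- library (circles) and the wild-type library (squares), light-strand genes left and heavy-strand genes right, with no error bars because each genotype has 1 library. All 8 light-strand genes are at 20 FPKM or more in each library, and every point at 0 belongs to a heavy-strand gene.

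The nuclear genes for the other subunits of the same complexes were set beside the mitochondrial ones. All 72 listed subunits of complexes I, III, IV and V reached 1 FPKM, and 54 of them were higher in the Adipoq-/- library as deposited, with a median ratio of 0.25, next to 33.1% of all genes and a median of -0.15. With equal sums 45 were higher, with a median of 0.09. For complex IV, all 11 nuclear subunits were higher (9 with equal sums), with a median of 0.26, next to a median of 0.31 for the 3 mitochondrial ones. Cox4i1 had the highest ratio there, at 1193 FPKM in the Adipoq-/- and 838 in the wild-type library (0.51). Cox7a1 had the lowest, at 5.78 FPKM in the Adipoq-/- and 5.59 in the wild-type library (0.04).

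For complex I, 28 of 37 nuclear subunits were higher (21 with equal sums), with a median of 0.22, next to 0.16 for the 7 mitochondrial ones. Over all genes tested, 33.1% were higher as deposited. The small subunit gene Ndufa3 stood at 758 FPKM in the Adipoq-/- and 470.2 in the wild-type library (0.69), the sole subunit at least 1.5-fold apart. Ndufs1, the largest subunit, stood at 26.04 FPKM in the Adipoq-/- and 37.8 in the wild-type library (-0.52). For complex III the median of 9 nuclear subunits was -0.06 (0.09 relative to the all-gene median), next to 0.12 for mt-Cytb. Uqcr10 had its highest ratio, at 1309 FPKM in the Adipoq-/- and 944 in the wild-type library (0.47). The core protein gene Uqcrc2 had its lowest, at 267 FPKM in the Adipoq-/- and 313 in the wild-type library (-0.23). For complex V, 11 of 15 nuclear subunits were higher, with a median of 0.25, next to 0.13 for the 2 mitochondrial ones. Its highest ratio was that of Atp5j, at 904 FPKM in the Adipoq-/- and 606 in the wild-type library (0.58). Its lowest was that of Atp5a1, the alpha subunit of the catalytic head, at 559 FPKM in the Adipoq-/- and 653 in the wild-type library (-0.22).

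Within each complex, summed FPKM of mitochondrial and nuclear subunits were both higher in the Adipoq-/- library as deposited, although 5 of 9 nuclear subunits of complex III were lower. For complex I the mitochondrial sum was 1.11-fold and the nuclear sum 1.21-fold higher, and for complex III 1.09-fold and 1.20-fold. For complex IV the mitochondrial sum was 1.20-fold and the nuclear sum 1.24-fold higher, and for complex V 1.11-fold and 1.15-fold. The sum of all genes was 1.12-fold higher, more than the mitochondrial sums of complexes I, III and V. The difference between mitochondrial and nuclear subunits was not tested. Across the 72 nuclear subunits the ratio had a Spearman rho of -0.33 with the length of the longest annotated transcript, the shorter ones tending to higher ratios.

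**Figure D5:**
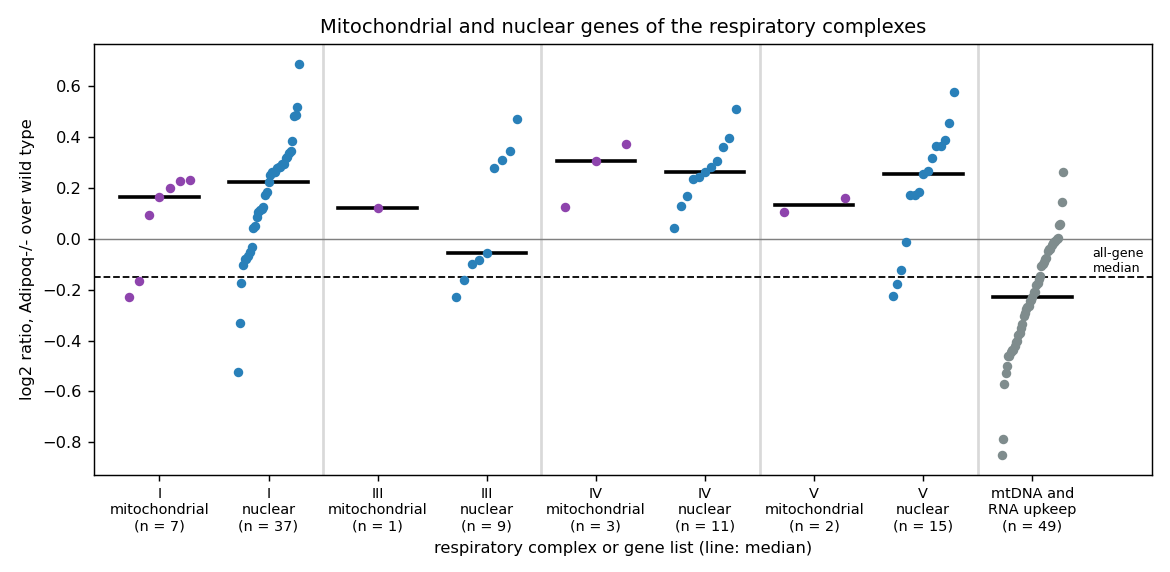
Log2 ratio of Adipoq-/- over wild type for single genes (points) with the median of each set (line), for mitochondrial and nuclear subunits of complexes I, III, IV and V and for nuclear genes that maintain mitochondrial DNA and RNA; the dashed line is the all-gene median of -0.15. The subunit medians lie between -0.06 and 0.31, and the median of the upkeep genes is -0.23.

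Nuclear genes that copy, transcribe and process the mitochondrial genome were mostly lower in the Adipoq-/- library as deposited. Of 67 symbols listed, which include older and newer names of the same gene, 52 were in the tables and 49 reached 1 FPKM. As deposited, 44 of these were lower in the Adipoq-/- library, with a median of -0.23, next to 66.9% of all genes and a median of -0.15. Relative to the all-gene median, 30 were lower and 19 higher, and with equal sums 48 were lower, with a median of -0.36. By ratios with the pseudocount of 1 FPKM, which understate differences of low genes, none was 2-fold apart and 2 were at least 1.5-fold lower. These transcripts had a median length of 3002 bases, against 1003 for the nuclear subunits. Each length is that of a gene's longest annotated transcript, which may differ from the transcript measured. After subtraction of the running median of all genes' ratios over transcript length, 27 of the 49 were lower and 22 higher, with a median of -0.02. For the nuclear subunits the same step gave 54 higher and 18 lower, with a median of 0.12.

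Among the transcription genes, the polymerase gene Polrmt stood at 5.47 FPKM in the Adipoq-/- and 7.89 in the wild-type library (-0.46). The DNA packaging and transcription factor gene Tfam stood at 21.4 FPKM in the Adipoq-/- and 23.01 in the wild-type library (-0.10). The terminator family gene Mterfd2 stood at 9.14 FPKM in the Adipoq-/- and 16.5 in the wild-type library (-0.79), at least 1.5-fold lower. The methyltransferase family gene Tfb1m stood at 8.24 FPKM in the Adipoq-/- and 7.90 in the wild-type library (0.05). All 9 replication and nucleoid genes were lower as deposited, with a median of -0.27, and 8 of the 9 lay below the all-gene median. After length correction 7 were lower and 2 higher, with a median of -0.07.

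Of 27 genes for RNA processing, stability and decay, 24 were lower as deposited, and 15 lay below the all-gene median. After length correction 13 were lower and 14 higher. Lrpprc, whose protein stabilises mitochondrial messenger RNAs, stood at 16.3 FPKM in the Adipoq-/- and 22.4 in the wild-type library (-0.44). The RNA granule gene Grsf1 stood at 29.1 FPKM in the Adipoq-/- and 42.4 in the wild-type library (-0.53). Mtpap, the mitochondrial poly(A) polymerase, stood at 2.98 FPKM in the Adipoq-/- and 4.63 in the wild-type library (-0.50). The lowest ratio in this class belonged to Trmu, a transfer RNA thiolation enzyme, at 6.39 FPKM in the Adipoq-/- and 9.97 in the wild-type library (-0.57). At the other end was Trit1, a transfer RNA isopentenyl transferase, at 7.24 FPKM in the Adipoq-/- and 5.87 in the wild-type library (0.26). Fastkd2, an RNA granule protein gene, stood at 16.2 FPKM in the Adipoq-/- and 14.6 in the wild-type library (0.14). The transfer RNA modifier gene Gtpbp3 stood at 3.05 FPKM in the Adipoq-/- and 2.89 in the wild-type library (0.06).

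Of the nuclear regulators, Gabpa, a subunit of the factor also called NRF-2, had the lowest ratio of the whole list, at 8.40 FPKM in the Adipoq-/- and 15.9 in the wild-type library (-0.85). Nrf1 stood at 2.76 FPKM in the Adipoq-/- and 3.45 in the wild-type library (-0.25). The orphan receptor gene Esrra stood at 6.03 FPKM in the Adipoq-/- and 6.56 in the wild-type library (-0.11). Ppargc1a, the fasting-responsive coactivator PGC-1 alpha, was under 1 FPKM in each library, at 0.335 in the Adipoq-/- and 0.636 in the wild-type library, and was left out of the counts.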

How the data were processed

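Messenger RNA sequencing libraries were made from pooled liver RNA, 1 for each genotype. The tools TopHat and Cuffdiff and the builds mm9 and NCBIM37 are named per the submitters' processing notes, without roles, versions or an annotation. The deposited FPKM values were made by the authors and taken as they stand. Depth is unknown, so no intervals are given. Of 13352 rows, 26 repeated a symbol, and only the more highly expressed row was used. Ratios used a pseudocount of 1 FPKM and genes with at least 1 FPKM in a library. With 1 library for each genotype, counts past 1.5-fold and 2-fold replace a test. Gene order, overlaps and lengths came from GENCODE M21 (GRCm38), a later build than the files use. The length of a gene was that of its longest annotated transcript, and a length was found for 96.5% of genes. Length correction subtracted a running median over 501 genes.

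Apart from cell type markers, named genes were every messenger and ribosomal RNA, transfer RNAs by level and ratio, and the extremes of each nuclear list. Polrmt, Tfam, Lrpprc, Ppargc1a, Esrra and Nrf1 were named as well. Transfer RNAs outside that rule were added for completeness, and Mtpap was also named outside it. The members and lists were chosen with earlier results of these data known. Python 3.11.15, numpy 2.4.6, pandas 2.3.3 and scipy 1.17.1 were used, and the steps were tested on simulated data.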

Additional observations from a re-analysis of the deposited data

How the results depend on the processing

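No paired analysis was possible because each genotype has 1 library. The median ratio of the mitochondrial messenger RNAs, 0.16 as deposited, became 0.31 relative to the all-gene median, 0.00096 with equal sums and 0.0016 relative to genes of at least 1000 FPKM. That of the transfer RNAs, -0.31 as deposited, became -0.16, -0.46 and -0.47 under the same settings, -0.56 after length correction, -0.14 with a minimum of 5 FPKM and -0.12 without those listed at 0 (added after seeing the data). The number of members at least 2-fold apart, 7, became 4 with the higher minimum and 2 without those listed at 0; at least 1.5-fold, 10 became 5 without them. The mitochondrial share was 0.141 percentage points higher in the Adipoq-/- library, or 1.12 without major urinary protein genes. Pseudocounts of 0.1 and 0.5 FPKM, no minimum, upper quartile scaling, equal sums without mitochondrial and major urinary protein genes, and summed duplicate rows moved none of these medians by 0.1 or more, and no count by over 1.5 times. With 1 library for each genotype and unknown depth, small differences cannot be told from library noise.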
